A study of Mus musculus with 38 samples.

Results

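Nrg3, Csmd1 and Pcdh9 are 3 of the 27998 genes in the single-nucleus count matrices made from mouse cortex. The study listed them among the genes that differed between Trim28-KO and control microglia nuclei, and they were chosen by that listing, which rests on their UMI counts in the microglia of the same 4 animals. Their microglia values by genotype, and those of Nrg3 in oligodendrocytes, which the study listed as well, are therefore given as a description with no test. The question asked was whether the microglia values moved with neuronal RNA found in nuclei of other cell types or with genotype.

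The study deleted Trim28, a co-repressor that keeps endogenous retroviruses silent, in the developing mouse cortex. Males carrying Emx1-Cre, a floxed Trim28 allele and a gtRosa reporter were crossed with Trim28-fl females. Control animals were Emx1-Cre (+/-), Trim28-fl (+/-), in which 1 Trim28 allele was excised. KO animals were Emx1-Cre (+/-), Trim28-fl (+/+), in which both were excised. By the study's methods Cre was thus present in both groups, although a legend of the study calls the controls of its bulk cortex comparison Cre-negative. Cortex nuclei of 2 KO animals (60 and 73) and 2 control animals (64 and 65), all 3 months old, were sorted at 8500 nuclei per sample and counted by 10x 3′ chemistry, and bulk cortex RNA was sequenced from these 4 animals, from KO 76 and from control 77. Emx1-Cre acts in dorsal forebrain progenitors, which give rise to excitatory neurons and to astrocytes and oligodendrocytes of the cortex. Microglia come from the yolk sac and interneurons from the ventral forebrain, so neither descends from Emx1 progenitors.

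Nrg3 encodes a neuregulin, a membrane-bound ligand of the ErbB4 receptor tyrosine kinase, and is known as a neuronal gene. Csmd1 encodes a very large transmembrane protein with CUB and sushi domains that limits complement activation. Pcdh9 encodes a non-clustered protocadherin, a calcium-dependent cell adhesion protein made by neurons and by cells of the oligodendrocyte lineage. When tissue is homogenised for nuclei, RNA of lysed cells stays in the suspension and can be captured in any droplet, where it is counted with the RNA of the nucleus. The 3′ chemistry primes on runs of A, and reads from introns were counted here, so a long gene with many A-runs in its introns can give many unique molecular identifiers (UMIs, each standing for 1 captured molecule).

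All 3 genes are long and mostly intron. In the gene annotation that came with the bulk counts (GRCm38.p6), Csmd1 lies at chr8:15892537-17535586, Nrg3 at chr14:38368952-39473088 and Pcdh9 at chr14:93013410-93890679, each on the minus strand. They span 1643050, 1104137 and 877270 bases, of which exons make up 1.16%, 0.617% and 0.773%. The median span of 15680 genes tested was 25763 bases. Runs of at least 10 A on the sense strand numbered 155 in Csmd1, 90 in Nrg3 and 88 in Pcdh9. The longest run in each gene is printed here, read from the genome 5′ to 3′ on the sense strand, with the run in capitals and 15 flanking bases on each side in lower case. By RefSeq's exons all of these lie in introns, at chr8:16940366-16940427 for Csmd1, chr14:38955245-38955309 for Nrg3 and chr14:93062824-93062874 for Pcdh9. They are shown because such stretches are what the capture chemistry can prime on inside unspliced transcripts. Whether reads began at these runs was not tested.
Csmd1: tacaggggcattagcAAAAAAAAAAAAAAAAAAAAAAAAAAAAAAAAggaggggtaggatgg
Nrg3: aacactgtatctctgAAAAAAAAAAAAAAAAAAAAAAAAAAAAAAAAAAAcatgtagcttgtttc
Pcdh9: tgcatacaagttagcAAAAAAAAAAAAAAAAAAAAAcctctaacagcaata

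The matrices held 14296 barcodes, of which 13671 passed the filter on detected genes, and 29127314 to 33524892 UMIs per library. The cluster called microglia held 691 nuclei, 168 and 122 from KO 60 and KO 73 and 229 and 172 from control 64 and control 65, with a median of 1570 to 1969 UMIs per animal. When all barcodes were clustered without that filter, microglia numbered 210, 238, 229 and 179 in the same order. The filter thus took out microglia mainly from the KO animals. The 8 microglia markers made up 1.01% to 1.32% of UMIs there and at most 0.018% in any other type. Among other types' markers in the microglia nuclei, the vascular markers Cldn5, Rgs5 and Slc6a13 were at 0 in all 4 animals, whereas the border macrophage markers Mrc1 and F13a1 were present at 65.02 to 202 CPM (the standard unit of library-size-scaled counts, here a gene's UMIs relative to all UMIs of the same type and animal). Trim28, the deleted gene, was at 6.08, 8.53 and 8.88 CPM in bulk cortex, scaled by edgeR's TMM factors, in KO 60, 73 and 76 and at 20.9, 18.98 and 21.4 in control 64, 65 and 77. In the nuclei the 3′ counts separated the genotypes poorly, at 6.33 and 6.72 CPM against 8.56 and 6.999 CPM in excitatory neurons and at 20.9 and 21.7 CPM against 14.8 and 34.7 CPM in microglia, the latter from 5 to 11 UMIs per animal. Whether these tags lie in the deleted part of the gene was not tested. Barcodes were shared between libraries by up to 20 nuclei per pair, and 3 of the 38 kept nuclei concerned were microglia.

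Excitatory neurons held the most Nrg3, at 4956 ± 497 CPM (SD, n = 4 animals), and inhibitory neurons followed at 4787 ± 94.5 CPM, a difference smaller than the spread between animals. Oligodendrocyte precursors (OPC) had 1495 ± 263 CPM. Vascular and meningeal nuclei at 499 ± 349, microglia at 372 ± 307, oligodendrocytes at 272 ± 223 and astrocytes at 179 ± 135 CPM came last, and neighbours among these 4 differed by less than their spread. Nrg3 was thus mainly a neuronal transcript in these nuclei, with microglia at 7.16% of the excitatory level on average.

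Csmd1 was highest in OPC at 5424 ± 648 CPM and excitatory neurons at 4737 ± 715 CPM, which overlapped, and lower in inhibitory neurons at 3034 ± 521 CPM. Vascular and meningeal nuclei at 366 ± 239, microglia at 276 ± 218, oligodendrocytes at 243 ± 185 and astrocytes at 238 ± 126 CPM again differed by less than their spread. The microglia level was 5.47% of the excitatory level.

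Pcdh9 followed another order. Oligodendrocytes held 14107 ± 552 CPM, above OPC at 5550 ± 386 CPM. Excitatory neurons at 4451 ± 576, astrocytes at 3696 ± 479 and inhibitory neurons at 2910 ± 330 CPM came next, and microglia at 692 ± 424 and vascular and meningeal nuclei at 605 ± 103 CPM were lowest and did not differ beyond their spread. For Pcdh9, oligodendrocytes as well as neurons are a source of RNA in the tissue, and its microglia level was 14.8% of the excitatory level.

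**Figure D1:**
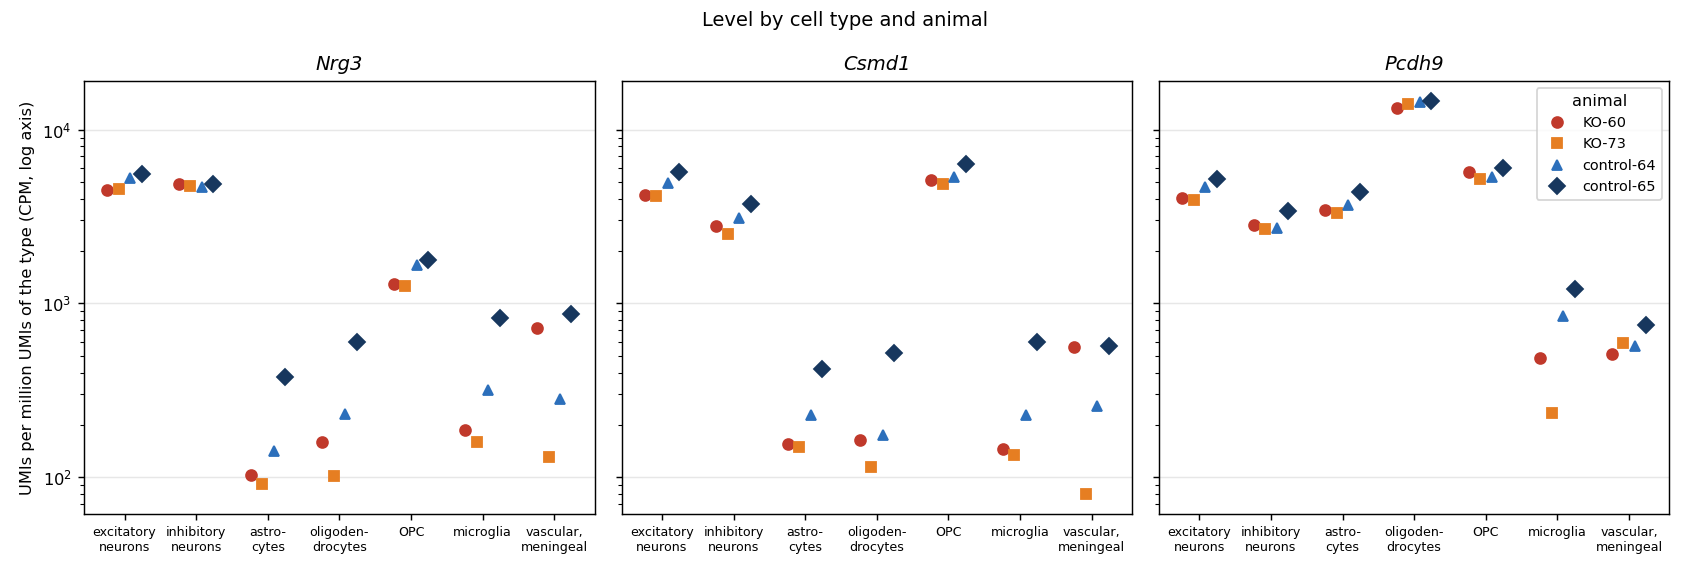
Level of Nrg3, Csmd1 and Pcdh9 in each cell type (x axis) in CPM (y axis, logarithmic), with 1 point per animal. Neurons and OPC lie above 1000 CPM for every gene, Pcdh9 is highest in oligodendrocytes, and in microglia control 65 lies above control 64 and both KO animals.

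In microglia, Nrg3 stood at 188 CPM in KO 60, 160 in KO 73, 318 in control 64 and 821 in control 65, from 54, 37, 150 and 260 UMIs. Csmd1 stood at 146, 134, 229 and 597 CPM in the same order, from 42, 31, 108 and 189 UMIs. Pcdh9 stood at 483, 234, 843 and 1206 CPM. For each gene both KO animals were below both controls, and control 65 was highest, at 2.58 times control 64 for Nrg3, 2.61 times for Csmd1 and 1.43 times for Pcdh9. Of the 6087 genes tested in microglia, 16.8% had both KO animals below both controls, and since this contrast chose the genes nothing is read from their count. The ratio of mean CPM, KO over control, was −1.71 for Nrg3, −1.56 for Csmd1 and −1.51 for Pcdh9 on the log2 scale. Without control 65 these ratios were −0.87, −0.71 and −1.23. In the same microglia nuclei the 6 excitatory neuron markers made up 0.0247%, 0.0186%, 0.0222% and 0.0382% of UMIs in KO 60, KO 73, control 64 and control 65, and the 6 inhibitory neuron markers 0.0177%, 0.0091%, 0.021% and 0.0297%. Both lists were highest in control 65 and lowest in KO 73, with 1 marker of each at 0 in KO 73 and none at 0 in the other animals. The 6 oligodendrocyte markers made up 0.0508%, 0.0191%, 0.0796% and 0.0505%. The part of these RNAs in the result was not tested.

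The microglia UMIs were spread thinly. Nrg3 had a UMI in 21.4% of the nuclei of KO 60, 24.6% in KO 73, 47.2% in control 64 and 74.4% in control 65, and no nucleus had more than 9. After each nucleus was thinned to 1300 UMIs, which left out 29 of the 691 nuclei, the shares were 16.6%, 19.7%, 31.2% and 63.6%. Vascular and meningeal nuclei, 38 to 49 per animal, gave 14.0%, 10.5%, 24.4% and 53.3% at the same depth. The order of the 4 animals differed only in the place of both KO animals, and the shares in microglia lay above those in vascular nuclei in each animal. For Csmd1 the microglia shares at that depth were 15.9%, 15.6%, 27.1% and 44.4%.

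Pcdh9 in microglia rested on few nuclei. Those with at least 10 Pcdh9 UMIs numbered 3 of 168 in KO 60, 0 of 122 in KO 73, 5 of 229 in control 64 and 2 of 172 in control 65, and they held 62.6%, 0%, 66.6% and 24.1% of the Pcdh9 UMIs. Of these 10 nuclei, 9 also had UMIs of oligodendrocyte markers such as Mbp, a gene of the myelin sheath, and the doublet caller marked 7 of them. Without them Pcdh9 stood at 187, 234, 296 and 941 CPM, a KO over control ratio of −1.55 on the log2 scale, and without the nuclei called doublets at 487, 234, 296 and 941 CPM, a ratio of −0.78. Control 65 was highest in both cases, and without the called doublets KO 60 lay above control 64, so the groups overlapped. The caller marked only 0.333% of the nuclei of KO 60, against 1.39% over all libraries, and all 3 nuclei with at least 10 Pcdh9 UMIs remained there.

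Other neuron transcripts in the same microglia nuclei were counted from 2 lists, 22 neuron genes with long spans (median 1028143 bases) and 23 neuron genes with mostly short spans (median 48943 bases). The long list holds adhesion and receptor genes such as Nrxn3, Dlg2 and Grin2a, and the short list holds genes such as Snap25 and Nrgn. Csmd3 of the long list, a relative of Csmd1, was left out of the sums because microglia themselves held it at 3757 ± 474 CPM against 776 ± 106 CPM in excitatory neurons. No gene was left out of the short list. Its gene Atp1b1 stood at 487 and 399 CPM in KO and 191 and 240 CPM in control microglia, on average 122% of its excitatory level. The other 21 long genes made up 0.275%, 0.209%, 0.292% and 0.729% of microglia UMIs in KO 60, KO 73, control 64 and control 65. They too were highest in control 65, and both KO animals and control 64 lay close together.

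As a share of the excitatory level in the same animal, microglia Nrg3 was 4.16%, 3.51%, 6.07% and 14.9% in KO 60, KO 73, control 64 and control 65. Csmd1 was 3.49%, 3.22%, 4.65% and 10.5%. The 21 long genes were 6.64%, 5.12%, 6.51% and 15.3%. The level in excitatory neurons of the highest animal was 1.22 times that of the lowest for Nrg3 and 1.36 times for Csmd1, whereas in microglia the factors were 5.12 and 4.44, and 3.48 for the 21 long genes. Between animals, the microglia values thus spread more widely than the neuronal level of the same genes, and the 21 long genes had the same lowest and highest animal as Nrg3 and Csmd1.

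Of the 22 long genes, all 22 had a lower mean in KO than in control microglia (median −1.20 on the log2 scale, range −1.49 to −0.17), and 13 had both KO animals below both controls, beside 16.8% of all genes tested, with 0 the other way. Control 65 weighed heavily in these means. Control 64 lay below both KO animals for Grin2a (69.5 and 56.4 CPM in KO, 53.0 in control 64, 243 in control 65) and for Grin2b and Cntnap2. The part of control 65 in the long-list ratios was not tested. Of the 23 short-list genes, 10 had a lower mean in KO (median 0.12, range −1.68 to 1.04), with 4 below and 6 above without overlap. Over all genes tested in microglia the median log2 fold change was −0.01, and 20.9% had both KO animals above both controls. No gene passed the test in microglia (0 of 6087 called by edgeR's quasi-likelihood test, 430 at an unadjusted p under 0.05, and 0 by DESeq2). The short-list genes also stood at a higher share of their excitatory level in microglia, 37.9% in the median against 7.51% for the long genes. The short list includes the interneuron genes Gad1 and Gad2. In microglia these stood at 460% and 412% of their excitatory level, but at 4.42% and 2.17% of their inhibitory level. In excitatory neurons, the medians were −0.22 for the long and 0.10 for the short genes. The lowest ratios in the long list were −1.49 for the cadherin Cdh12 and −1.46 for the contactin Cntn5, named after their values were seen. The study listed 4 further genes in microglia, and their ratios, also a description, were −1.20 for Kcnip4, −1.29 for Cadm2, −0.71 for Snhg11 and −0.69 for Celf2. The Kcnip4 ratio rested on control 65 alone, with 379, 355, 352 and 1332 CPM in KO 60, KO 73, control 64 and control 65. For Cadm2, Snhg11 and Celf2 both KO animals lay below both controls.

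**Figure D2:**
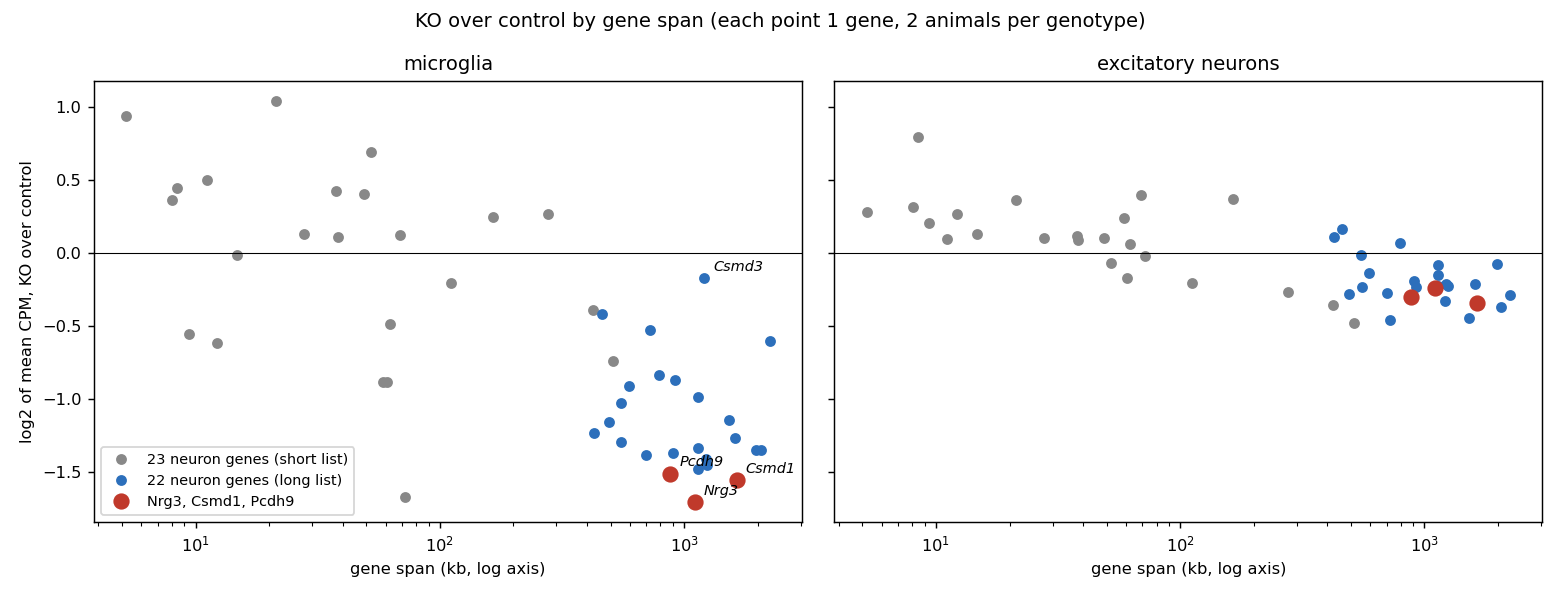
Log2 ratio of mean CPM in KO over control animals (y axis) against gene span in kb (x axis, logarithmic) in microglia and in excitatory neurons, with 1 point per gene. In microglia Nrg3, Csmd1 and Pcdh9 lie between −1.71 and −1.51 near the low end of the long neuron genes, with Csmd3 near 0, while in excitatory neurons the same genes lie much closer to 0.

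Relative to the 21 long genes, the members still differed between animals. Nrg3 made up 6.40% (95% exact binomial interval 4.84 to 8.27) of the UMIs of Nrg3 and the 21 genes in KO 60 microglia, 7.12% (5.06 to 9.67) in KO 73, 9.80% (8.36 to 11.4) in control 64 and 10.1% (8.98 to 11.3) in control 65. In excitatory neurons the shares were 9.83%, 10.0%, 10.4% and 10.4%. The intervals of both controls held the excitatory share of the same animal, and those of both KO animals ended below it. In inhibitory neurons the Nrg3 shares were 9.33%, 9.45%, 8.46% and 8.26%. The intervals of KO 73 and control 64 held these, that of KO 60 ended below and that of control 65 lay above. Csmd1 made up 5.05%, 6.03%, 7.26% and 7.56% in microglia against 9.19%, 9.26%, 9.87% and 10.6% in excitatory neurons, lower in microglia in each animal. In inhibitory neurons its shares were 5.60%, 5.25%, 5.75% and 6.45%. The microglia intervals of KO 60 (3.66 to 6.76) and KO 73 (4.13 to 8.45) held these. Those of control 64 (5.99 to 8.70) and control 65 (6.56 to 8.67) lay above. Pcdh9 made up 15.0%, 10.1%, 22.4% and 14.2% in microglia against 8.89%, 8.78%, 9.42% and 9.76% in excitatory neurons. Without the nuclei with at least 10 Pcdh9 UMIs, a choice made after seeing the data, the microglia shares were 6.55%, 10.1%, 9.80% and 11.4%. KO 60 (4.93 to 8.50) then fell below its excitatory share, the intervals of KO 73 (7.64 to 12.9) and control 64 (8.27 to 11.5) held theirs, and only control 65 (10.2 to 12.7) lay above. Against inhibitory shares of 5.64%, 5.60%, 5.11% and 5.91%, the interval of KO 60 held its own and the others lay above. These intervals cover counting error only.

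**Figure D3:**
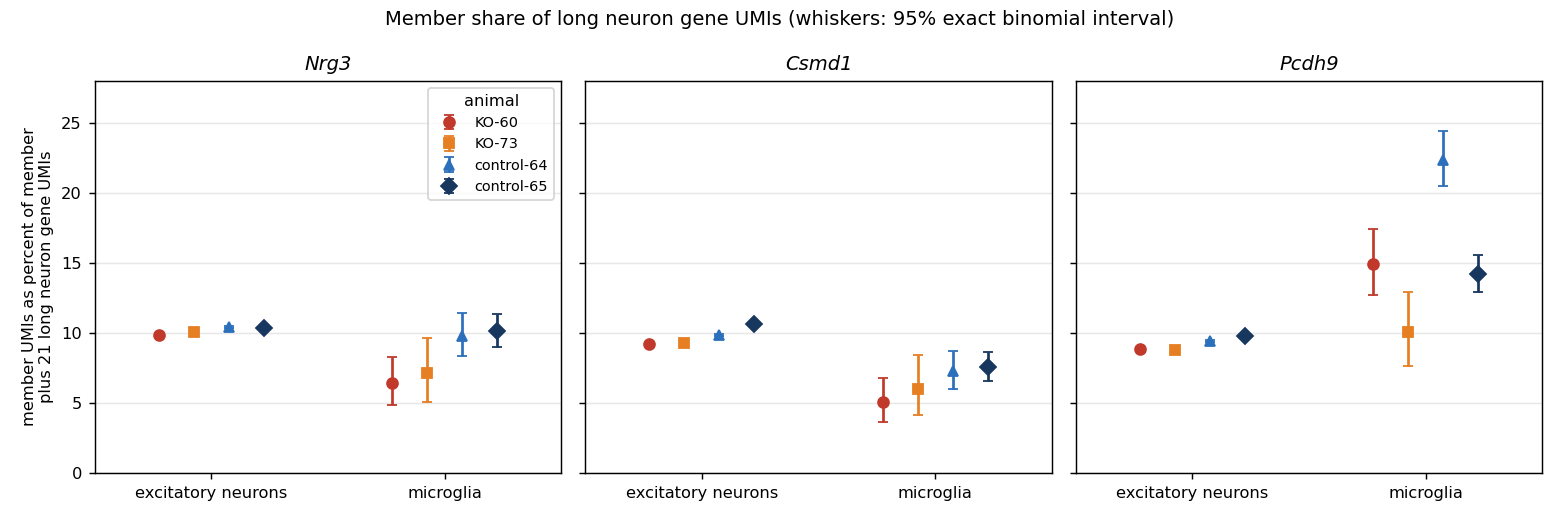
UMIs of Nrg3, Csmd1 or Pcdh9 as a percent of its own UMIs plus those of the 21 long neuron genes (y axis) in excitatory neurons and microglia (x axis), with 1 point per animal and 95% exact binomial intervals. Nrg3 in microglia reaches the excitatory share in both controls (9.80% and 10.1%) and lies lower in KO 60 (6.40%). Csmd1 lies below the excitatory share in each animal. Pcdh9 lies above it (15.0% against 8.89% in KO 60), which turns in KO 60 (6.55%) without the nuclei of at least 10 Pcdh9 UMIs. Inhibitory neurons, whose shares differ, are not shown.

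Microglia nuclei were then split by their content of other RNA. In nuclei below their animal's median for the share of UMIs on short neuron genes, the KO over control ratio was −1.88 for Nrg3, −1.62 for Csmd1 and −1.71 for Pcdh9, and above that median −1.58, −1.503 and −1.17. In nuclei below the median of total UMIs it was −2.23, −1.54 and −1.58, and above it −1.37, −1.58 and −1.497. The ratio was below 0 in each part of both splits, but nothing is read from this sign, since this contrast in these nuclei chose the genes. Control 65 was above control 64 in each part. For Nrg3 it stood at 768 against 281 CPM below the short-gene median and at 880 against 360 CPM above it. Short-list genes stood in microglia at a median of 37.9% of their excitatory level, so they are an imprecise gauge of neuronal RNA. Across the 122 to 229 microglia nuclei of an animal, the share of UMIs on a member and that on the 21 long genes correlated weakly, from −0.05 to 0.20 for Nrg3, from −0.02 to 0.00 for Csmd1 and from −0.09 to 0.25 for Pcdh9. In counts of this sparseness such values carry no finding.

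Barcodes below the filter on detected genes gave a further view of thinly filled droplets. Nrg3 stood there at 1038, 555, 3384 and 2948 CPM in KO 60, KO 73, control 64 and control 65, and the 21 long genes made up 1.51%, 0.887%, 3.88% and 2.90% of UMIs. Both KO animals were below both controls for Nrg3 and Csmd1, while Pcdh9 overlapped at 4146 to 5179 CPM. The makeup of these barcodes moved with genotype too, since they held 3.14 and 7.19 microglia marker UMIs per barcode in the KO animals and 0.36 and 0.83 in the controls. They numbered 190, 281, 89 and 65. Control 64 was above control 65 for Nrg3 in these barcodes, unlike in microglia. The part of free RNA in the microglia values was not tested, since droplets without a called barcode were not analysed here.

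Nrg3 was also low in KO and high in control 65 in astrocytes and oligodendrocytes. Nrg3 in astrocytes stood at 104, 91.2, 142 and 378 CPM in KO 60, KO 73, control 64 and control 65, and in oligodendrocytes at 160, 101, 231 and 596 CPM. In vascular and meningeal nuclei it stood at 721, 130, 283 and 864 CPM, where KO 60 exceeded control 64 and the genotypes overlapped. The 104 Nrg3 UMIs of KO 60 there came from 16 of 43 nuclei. Control 65 was the highest animal for each of the 3 genes in all 7 types, microglia included. The 21 long genes made up 0.274%, 0.297%, 0.329% and 0.581% of astrocyte UMIs and 0.663%, 0.694%, 0.833% and 1.14% of oligodendrocyte UMIs, again highest in control 65. Of vascular and meningeal UMIs they made up 0.841%, 0.25%, 0.531% and 0.673%, highest in KO 60, and the genotypes overlapped. Of the 8 microglia markers only the complement gene C1qa is given by animal here, and it does not stand for the set. In microglia of control 65 C1qa was lowest, at 798.6 CPM against 1864 to 2139 CPM in the other animals. The part of this library's makeup in the genotype differences was not tested.

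**Figure D4:**
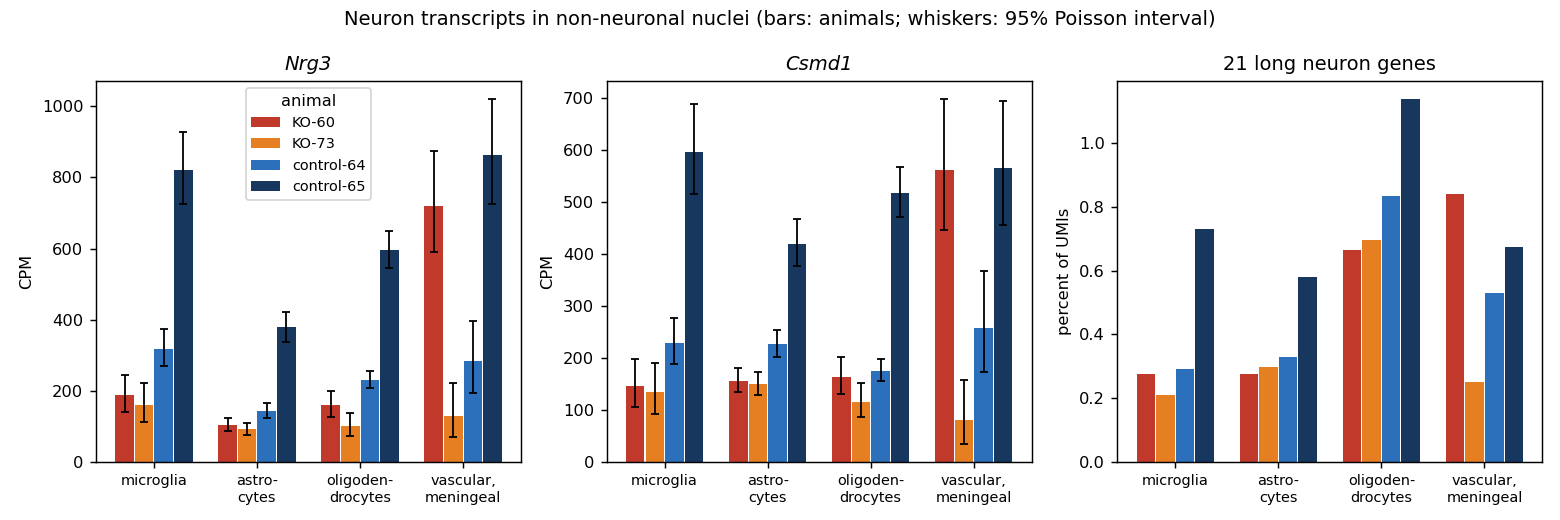
Nrg3 and Csmd1 in CPM and the 21 long neuron genes as a percent of UMIs (y axes) in 4 non-neuronal cell types (x axes), with 1 bar per animal and 95% Poisson intervals for the single genes. Control 65 is highest for both genes in each type shown, and in vascular nuclei KO 60 lies close to it.

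Genotype was then tested in the cell types and samples that did not choose the genes, with edgeR's quasi-likelihood test on UMIs summed per animal (2 KO against 2 control) and adjustment over all genes tested. These are the same 4 animals as in microglia, so the tests are not independent of the microglia values. Of 14 tests of a member in 5 cell types, 2 passed at an adjusted p under 0.05, both for Csmd1. In astrocytes Csmd1 stood at 156 and 149 CPM in the KO animals and 227 and 420 CPM in the controls, and fell by 1.05 ± 0.23 on the log2 scale (SE, adjusted p = 0.0338, edgeR), where 2.09% of 10297 genes were called and 1.17% were called lower in KO. In oligodendrocytes it stood at 163 and 115 CPM against 175 and 517 CPM and fell by 1.29 ± 0.32 (adjusted p = 0.0279, edgeR), where 2.98% of 8041 genes were called and 1.13% were called lower in KO. The astrocyte call was lost without KO 60 (adjusted p = 0.109, edgeR) or KO 73 (0.274), and with control 65 left out the fold change was −0.60. The oligodendrocyte call was lost with DESeq2 (adjusted p = 0.9998), without KO 73 (0.345, edgeR) and without control 65 (0.48, a log2 fold change of −0.38).

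Nrg3 in astrocytes had a log2 fold change of −1.37 ± 0.33 that missed the threshold (adjusted p = 0.0582, edgeR). It passed without doublets (0.0233), without the count filter (3.3e-11), without control 64 (3.94e-26, a fold change of −1.92) and without control 65 (0.0462, a fold change of −0.58), and DESeq2 gave 0.737. Pcdh9 in astrocytes, at 3424 and 3290 CPM against 3704 and 4366 CPM, had −0.26 ± 0.11 (adjusted p = 0.309, edgeR), and passed without control 64 (0.0251). In oligodendrocytes, where it is most abundant, Pcdh9 stood at 13361 and 14073 CPM against 14338 and 14657 CPM, with −0.10 ± 0.11 (adjusted p = 0.821, edgeR). Nrg3 in oligodendrocytes had a log2 fold change of −1.64, given with no test, and −0.87 without control 65.

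In excitatory neurons, which descend from Emx1 progenitors, both KO animals were below both controls for each of the 3 genes, a pattern shown by 25.6% of 16250 genes, while 34.4% had both KO animals above both controls. Nrg3 stood at 4509 and 4565 CPM against 5234 and 5515 CPM, Csmd1 at 4185 and 4173 against 4916 and 5675 CPM, and Pcdh9 at 4036 and 3935 against 4667 and 5165 CPM. None passed the test, in which 6.84% of genes were called. The log2 fold changes were −0.29 ± 0.10 for Nrg3 (adjusted p = 0.128, edgeR), −0.39 ± 0.12 for Csmd1 (0.0905) and −0.35 ± 0.11 for Pcdh9 (0.0973). DESeq2 called Csmd1 (adjusted p = 0.0295) and Pcdh9 (0.044).

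In inhibitory neurons, which come from outside the Emx1 lineage, Nrg3 stood at 4856 and 4736 CPM in KO and 4681 and 4877 CPM in control animals, with overlapping groups and a log2 fold change of −0.01 ± 0.10 (adjusted p = 0.967, edgeR). Csmd1 had −0.38 ± 0.12 (0.229) and Pcdh9 −0.17 ± 0.12 (0.545). Here 0% of 12690 genes were called (1840 at an unadjusted p under 0.05, and 16 by DESeq2). Without control 64, Csmd1 and Pcdh9 passed the test in these neurons, at adjusted p = 2.15e-11 and 6.54e-05 (edgeR). In OPC the log2 fold changes were −0.45 ± 0.13 for Nrg3 (adjusted p = 0.214, edgeR), −0.24 ± 0.11 for Csmd1 (0.513) and −0.08 ± 0.11 for Pcdh9 (0.886), where 0.299% of 6682 genes were called. Without control 64, Nrg3 (0.0377) and Csmd1 (0.0278) passed there.

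The genotype difference was compared between glia and excitatory neurons of the same animals with an interaction term and the animal as a block, a test added after the values were seen. For Nrg3 the log2 fold change in astrocytes was lower than in excitatory neurons by a difference of −1.04 ± 0.27 (SE, adjusted p = 0.00867, edgeR), where 2.8% of 15956 genes were called. For Csmd1 the difference was −0.68 ± 0.24 (adjusted p = 0.119) in astrocytes and −0.90 ± 0.34 (0.165) in oligodendrocytes, where 2.43% of genes were called. For Pcdh9, which both glial types hold at high levels, it was 0.04 ± 0.21 (0.988) and 0.11 ± 0.35 (0.966). The Nrg3 difference no longer passed without KO 60 (−1.03, adjusted p = 0.433, edgeR), without KO 73 (−0.90, 0.562) or without control 65 (−0.37, 0.567), and was −1.63 without control 64. Without control 64 the Csmd1 difference passed in astrocytes (−0.98, adjusted p = 9.31e-05, edgeR) and in oligodendrocytes (−1.504, 4.1e-06), and without control 65 it was −0.37 and −0.11.

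Genes of the pathways of the 3 members were counted next. Among 15 ligands and receptors of the ErbB family, 2 of 8 tested were called lower in astrocytes, where 1.17% of all genes were, and none higher. Nrg1, another neuregulin, stood there at 93.0 and 102 CPM in KO against 163 and 275 CPM in control animals (−1.13 ± 0.22, adjusted p = 0.018, edgeR). Tgfa, an EGF receptor ligand, had 2 and 1 UMIs against 35 and 29, so it entered the test through the controls alone, and its call is given no weight. In OPC 1 of 7 fell, again Nrg1 (−1.07 ± 0.16, adjusted p = 0.00361, edgeR), where 0.299% of 6682 genes were called, 11 of them lower. In excitatory neurons 2 of 10 fell, Tgfa and Egf, both under 8 CPM, where 6.84% of 16250 genes were called, 524 of them lower. In microglia Nrg1 stood at 174, 139, 189 and 603 CPM in KO 60, KO 73, control 64 and control 65, again highest in control 65. Erbb4, the receptor of Nrg3, was highest in inhibitory neurons at 6536 ± 385 CPM, and stood at 104, 39.0, 146 and 193 CPM in microglia, while Erbb2 was at 0 there in all 4 animals.

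Of the 3 Csmd genes, 1, Csmd2, fell in excitatory neurons, at 359 and 365 against 490 and 568.3 CPM (−0.60 ± 0.11, adjusted p = 0.0317, edgeR). There 6.84% of 16250 genes were called, 524 of them lower. Csmd3, the family member that microglia hold at the highest level, stood in them at 3049 and 4014 CPM in KO and 4029 and 3936 CPM in control animals, and the groups overlapped. Of 17 complement genes, C4b, a component of the classical pathway, was the 1 of 6 tested that rose in oligodendrocytes (2.09 ± 0.55, adjusted p = 0.0381, edgeR), from 10 and 13 UMIs against 8 and 5. There 2.98% of 8041 genes were called, 149 of them higher. C4b was also the 1 of 15 that rose in bulk cortex (1.13 ± 0.16, adjusted p = 0.00305, edgeR), where 1.33% of 16271 genes were called, 140 of them higher. Cd59a, which blocks the membrane attack complex, was the 1 of 14 that fell in excitatory neurons (−1.14 ± 0.23, adjusted p = 0.0357, edgeR). That call came from 41 and 40 UMIs in KO against 75 and 73 in control animals, where 524 of 16250 genes were called lower. None of the 8 complement genes tested in microglia passed. Of 11 non-clustered protocadherins, Pcdh10 (−0.59 ± 0.12, adjusted p = 0.0405, edgeR) and Pcdh7 (−0.49 ± 0.11, 0.0485) fell in excitatory neurons, 2 of 9 tested. Over all genes there 6.84% were called, 524 of 16250 lower. None of these protocadherins rose, and none passed in glia.

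The long neuron list itself gave 1 of 22 genes that fell in excitatory neurons (Lrp1b), 6 of 22 genes that fell in oligodendrocytes, 2 of 22 in astrocytes and 2 of 22 in OPC, with none that rose in these types. Over all genes, 6.84% were called in excitatory neurons (524 of 16250 lower) and 0.299% in OPC (11 of 6682 lower). In oligodendrocytes 1.13% were called lower and in astrocytes 1.17%. Cntnap2, a neurexin relative of the axon membrane, fell by 1.54 ± 0.31 in oligodendrocytes (adjusted p = 0.00529, edgeR). Fgf14, a sodium channel partner, fell in oligodendrocytes (−1.58 ± 0.33, adjusted p = 0.00656, edgeR) and in astrocytes (−1.28 ± 0.24, adjusted p = 0.0173, edgeR). Of the short list, 0 of 22 were called in astrocytes and 1 of 21, Atp1b1, rose in oligodendrocytes. The median log2 fold change of the long list was −0.98 in oligodendrocytes and −1.001 in astrocytes, beside −0.01 and 0.00 over all genes tested.

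The genes whose log2 CPM followed each member most closely over 28 sums of 7 cell types and 4 animals were, for Nrg3, the presynaptic gene Rims1 (Pearson r = 0.976), the neuronal transcription factor Myt1l (0.976) and the potassium channel Kcnq5 (0.974). For Csmd1 they were Fam155a (0.98), Lrrtm4 (0.979) and Sgcz (0.978), and for Pcdh9 Mapt (0.941), Ncam1 (0.938) and Gm11659 (0.934). The sums share animals and depth, and 10760 genes were compared. In microglia Rims1 had a KO over control ratio of −1.58 on the log2 scale and Mapt −0.31.

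Bulk cortex is a readout that did not choose the genes, although 4 of its 6 animals are those of the nuclei. In CPM scaled by edgeR's TMM factors, Nrg3 stood at 62.8, 63.5 and 52.9 in KO 60, 73 and 76 and at 54.7, 64.9 and 68.1 in control 64, 65 and 77. Csmd1 stood at 39.1, 35.1 and 41.4 against 40.4, 40.0 and 43.5. Pcdh9 stood at 214, 175 and 167 against 215, 219 and 190. The groups overlapped for Nrg3 and Csmd1, and for Pcdh9 KO 60 lay between the controls. None passed the test, in which 1.33% of 16271 genes were called, with log2 fold changes of −0.06 ± 0.11 for Nrg3 (adjusted p = 0.985, edgeR), −0.10 ± 0.10 for Csmd1 (0.933) and −0.16 ± 0.11 for Pcdh9 (0.804). Control 65, highest in the nuclei, was not set apart from the other controls here. In bulk tissue, fewer cells of a type and less RNA per cell cannot be told apart, so these values do not separate the cell types. Scaled by total counts alone, KO 76 had lower values (39.8, 31.2 and 126 CPM for Nrg3, Csmd1 and Pcdh9), and its TMM factor was 0.754 against 1.03 to 1.09 in the other libraries.

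**Figure D5:**
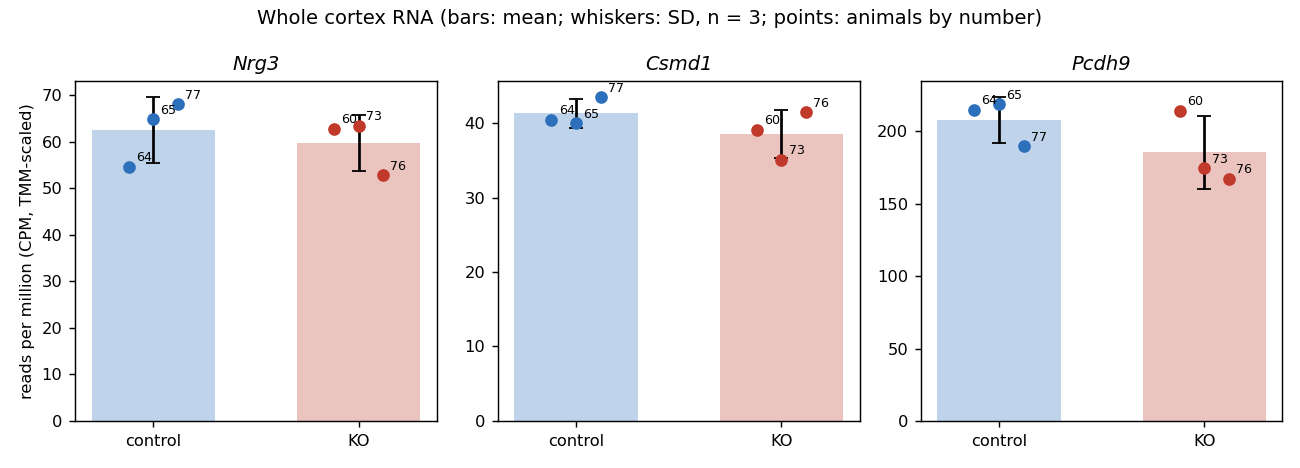
Nrg3, Csmd1 and Pcdh9 in bulk cortex RNA in TMM-scaled CPM (y axis) in control and KO animals (x axis), with a point per animal marked by its number, bars at the mean and whiskers of 1 SD (n = 3). For Nrg3 the control mean is 62.6 ± 7.03 and the KO mean 59.7 ± 5.95 CPM, and the groups overlap.

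In the series' other bulk libraries, Nrg3 had 0 reads in each of the 8 libraries of cultured Cas9 neural progenitors (6 with a Trim28 guide and 2 controls), which allows up to 0.151 to 0.30 CPM per library, and Csmd1 was at 0 to 0.30 CPM there. Pcdh9 was at 51.7 to 115 CPM in the same progenitors. In the 8 libraries of sorted nuclei from the forebrain of adult Trim28-flox animals injected with AAV vectors for Cre, Nrg3 was at 4.25 to 9.53 CPM, Csmd1 at 137 to 200 CPM and Pcdh9 at 7.60 to 15.8 CPM. In these 8 libraries Trim28 went against the labels, at 127 to 145 CPM in the libraries labelled KO and 25.1 to 31.3 CPM in those labelled control, so no genotype comparison is given.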

How the data were processed

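Nuclei matrices were deposited as UMI counts that the authors made with Cell Ranger 3.0 (default settings) on a pre-mRNA mm10 reference. Bulk gene counts were deposited from STAR 2.6.0 and featureCounts (Subread 1.6.3) per the labels, on GRCm38.p6; gene counts of TEtranscripts served as an alternative. For each library, barcodes whose log10 number of detected genes lay no more than 3 MADs (median absolute deviations) from the library's median were kept and clustered (Seurat 5.3.0, 2000 variable genes, 20 components, resolution 0.1), and clusters were named by markers. Doublets were called per library (scanpy 1.11.5, scrublet) and kept in the main analysis. Only called barcodes were used, so no empty droplets were analysed. UMIs were summed per animal and type, because nuclei are not replicates, and tested with edgeR 4.0.16 (quasi-likelihood, filterByExpr, TMM, Benjamini-Hochberg over all genes tested); genes were called at an adjusted p under 0.05, in bulk also beyond 0.5 on the log2 scale. Vascular nuclei, 38 to 49 per animal, were described with no test. In simulated counts 69% of 2-fold and 96% of 4-fold changes were found for excitatory neurons (16250 genes, 29 of 194 calls false), 25% and 80% for microglia (6087 genes) and 80% and 98% for bulk (16271 genes). Alternatives were DESeq2 1.42.0, RLE factors, no count filter, no doublets and leaving out each animal. Gene symbols came from a table of names; 889 of 55298 bulk IDs had none. The named genes were the 3 members, Trim28, the genes of lists of related genes and markers, and the 3 genes closest to each member in pattern. Members and lists were chosen with earlier results of these data known. Animals are separate, but each gave 1 library.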

Additional observations from a re-analysis of the deposited data

Results flagged for a closer look

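A test of the difference between cell types picked out Nrg3 in astrocytes against excitatory neurons of the same animals. The log2 fold change, KO over control, differed by −1.04 ± 0.27 (SE, adjusted p = 0.00867, edgeR's interaction term with the animal as a block), with Nrg3 at 104 and 91.2 CPM against 142 and 378 CPM in astrocytes and at 4509 and 4565 CPM against 5234 and 5515 CPM in excitatory neurons. Both KO animals were below both controls in each type. Control 65 alone set the upper end in astrocytes, at 2.66 times control 64, and without it the astrocyte log2 fold change was −0.58 in place of −1.37. Without control 65 the difference between the cell types was −0.37 (adjusted p = 0.567, edgeR), and it also missed the threshold without KO 60 (−1.03, 0.433) or KO 73 (−0.90, 0.562), while without control 64 it was −1.63 (1.95e-12). These refits were added after seeing the data.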

How the results depend on the processing

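Ratios are log2, KO over control, with no test in microglia. Taking as microglia every nucleus with UMIs of 3 of 8 markers brought in nuclei of other clusters (885 nuclei, 686 of them in the microglia cluster). It gave −0.21 for Nrg3, −0.26 for Csmd1 and −0.59 for Pcdh9. For the member's share of member plus short-list UMIs it gave −0.15, −0.19 and −0.41. Within the microglia cluster that rule kept Nrg3 at 188, 160, 318 and 821 CPM. Without the filter on detected genes Nrg3 in microglia stood at 193, 177, 318 and 818 CPM. Csmd1 then stood at 152, 145, 229 and 589 CPM and Pcdh9 at 449, 235, 843 and 1199 CPM. In the microglia cluster, the ratios of the member's share of member plus short-list UMIs were −1.49, −1.40 and −1.29. With the long list in place of the short list they were −0.97, −0.84 and −0.85. Without Csmd3, chosen after seeing the data, they were −0.56, −0.42 and −0.55. Without doublets Pcdh9 was at −0.78, and at −0.60 for its share of Pcdh9 plus short-list UMIs. Leaving out 1 animal at a time gave −2.24 to −0.87 for Nrg3, −2.09 to −0.71 for Csmd1 and −2.13 to −1.08 for Pcdh9. For the share of member plus short-list UMIs it gave −1.76 to −1.15, −1.69 to −1.03 and −1.70 to −0.97.

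Counts of called genes moved under DESeq2 to 1774 in excitatory neurons, 16 in inhibitory neurons, 111 in astrocytes, 92 in oligodendrocytes and 10 in OPC. Without the count filter they were 0 in excitatory neurons, 521 in astrocytes, 68 in OPC, 87 in microglia and 546 in bulk cortex, and without doublets 6 in OPC. Leaving out 1 animal at a time gave 0 to 326 calls in excitatory neurons, 18 to 2907 in inhibitory neurons, 65 to 977 in astrocytes, 94 to 683 in oligodendrocytes, 19 to 150 in OPC, 0 to 61 in microglia and 104 to 344 in bulk cortex. An arm of nuclei then holds 1 animal, which is assumed to vary like the others. Excitatory calls fell to 0 without control 64 or control 65, and the 2907 inhibitory calls came without control 64.

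Of the members' tests under the alternatives, 121 kept direction and side of the threshold, 11 newly passed and 5 no longer passed. The sign turned in 5, all near 0. These were Nrg3 in inhibitory neurons without the count filter (0.0029), without KO 73 (0.0067) and without control 65 (0.0342), Pcdh9 in inhibitory neurons without control 65 (0.015) and Nrg3 in bulk cortex without KO 76 (0.0186), while leaving out the other animals reached −0.0501, −0.33 and −0.16 in these 3 results. The cause of these changes was not tested. No paired analysis was possible because no animal number occurs in both KO and control groups. With 31 to 260 microglia UMIs per animal for Nrg3 and Csmd1 and 2 animals per group, small differences were not detectable at this depth.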
